A study of Homo sapiens with 2 samples.

Results

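Member tiles are 1-kb stretches of the autosomes that carried at least 80% methylation in the control library and at most 30% in the library of cells with the HOXA5-directed methyltransferase. They were selected on the methylation levels of both libraries, so their levels are described and not tested. A tile was tested when it held at least 5 CpGs read in both libraries and at least 15 summed reads in each. Of 742717 tested tiles on chromosomes 1 to 22, 212 were members, which is 0.0285% of the tested tiles and 0.0632% of the 335579 tiles at or above 80% in the control library. With the libraries swapped, 1998 tiles went from at least 80% in the HOXA5-targeted library to at most 30% in the control library, which is 0.269% of the tested tiles.

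The study brought a DNA methyltransferase to the HOXA5 promoter with a deactivated Cas9 and used whole genome bisulfite sequencing (WGBS) to look at methylation around that locus; the same libraries also cover the rest of the genome. Both libraries came from HEK293T, an established line of human embryonic kidney cells that carries the SV40 large T antigen, and each group had 1 library with no replicate, so a difference between groups cannot be told apart from a difference between libraries. The library dCas9+3A+HOXA5, called the HOXA5-targeted library below, came from cells that carried lentiviral dCas9-SunTag (deactivated Cas9 with a tail of epitopes), DNMT3A fused to the antibody fragment that binds the epitopes, and a guide RNA in exon 1 of HOXA5, sorted for fluorescence and grown for 30 days. The library Neg is titled as the negative control; the study uses this name for untreated cells, while the sample labels give both libraries the same account of infection, and what the Neg cells carried was not resolved further. On the autosomes Neg listed 22577702 CpGs with a mean of 3.81 reads, and the HOXA5-targeted library listed 15475692 CpGs with a mean of 2.897 reads. Over all tested tiles the level was higher in the HOXA5-targeted library, with a median difference of 4.76 percentage points, and 248100 tiles were lower while 482714 were higher.

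DNA methylation in mammals sits mainly on the cytosine of CpG dinucleotides, where DNMT3A and DNMT3B place it and DNMT1 copies it to the new strand after replication. Most CpGs of a genome are methylated, CpG islands at gene starts are mostly free of it, and cultured and cancer cells hold long partially methylated domains, often far from active genes. Methylation can be lost by dilution through replication or by oxidation through the TET enzymes.

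The sequences of 3 member tiles are shown with the C and G of each CpG measured in both libraries in capitals and CpGs measured in 1 library or none in lower case. Each is the plus strand of GRCh37, the same assembly as hg19, cut to the stretch of at most 300 bases outside UTRs that holds the most measured CpGs of the tile. They were chosen to show the member tile with the most measured CpGs (HS3ST6), 1 of the tiles with the largest loss (near GSC), and 1 tile of a chromosome 2 stretch that held several members. The last of these lay 176 kb from the start of HDAC4.
HS3ST6, chr16:1968002-1968287: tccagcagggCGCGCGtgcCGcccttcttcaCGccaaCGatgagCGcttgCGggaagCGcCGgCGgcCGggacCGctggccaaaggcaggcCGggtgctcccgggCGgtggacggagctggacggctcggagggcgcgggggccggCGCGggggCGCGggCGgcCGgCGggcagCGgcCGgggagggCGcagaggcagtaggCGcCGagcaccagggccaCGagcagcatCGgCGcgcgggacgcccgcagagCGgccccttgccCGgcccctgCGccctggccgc
near GSC, chr14:95374295-95374594: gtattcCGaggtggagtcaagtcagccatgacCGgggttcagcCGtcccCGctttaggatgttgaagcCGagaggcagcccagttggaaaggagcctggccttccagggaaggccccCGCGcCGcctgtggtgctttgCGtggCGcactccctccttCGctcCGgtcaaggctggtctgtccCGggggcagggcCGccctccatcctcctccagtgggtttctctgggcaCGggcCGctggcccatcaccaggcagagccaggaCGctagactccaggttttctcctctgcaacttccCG
upstream of HDAC4, chr2:240499143-240499379: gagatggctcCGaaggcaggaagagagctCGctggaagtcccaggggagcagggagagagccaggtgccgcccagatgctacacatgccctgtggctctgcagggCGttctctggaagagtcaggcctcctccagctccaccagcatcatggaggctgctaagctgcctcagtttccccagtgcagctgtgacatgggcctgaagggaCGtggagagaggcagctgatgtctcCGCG

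In the HS3ST6 stretch, 33 of 45 CpGs were measured in both libraries. Neg had 88 methylated reads of 96 there, 91.7% (Wilson 95% interval 84.4 to 95.7), and the HOXA5-targeted library had 0 of 147, which allows a share of up to 2.04% if a count of 0 is taken to allow 3 counts (Wilson upper limit 2.55%). A read is counted at every CpG it covers, and no CpG of the stretch was read more than 9 times in Neg or 6 times in the HOXA5-targeted library, so these intervals cover counting error as if each count were a separate molecule. In Neg each measured CpG of the stretch from base 65 to base 276 of the tile had only 1 or 2 reads. The other 24 measured CpGs of the same tile stood at 80.8% in Neg (80 of 99 reads) and 57.1% in the HOXA5-targeted library (32 of 56 reads). The low level was thus uneven within the tile.

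The stretch near GSC had 50 of 64 reads methylated in Neg (78.1%, Wilson 66.6 to 86.5) and 4 of 69 in the HOXA5-targeted library (5.80%, 2.28 to 14.0), and the rest of the tile 29 of 30 and 10 of 14. The stretch upstream of HDAC4 had 32 of 43 and 0 of 19, the latter allowing up to 15.8% by the same 3 counts (Wilson upper limit 16.8%), and the rest of its tile 23 of 25 and 8 of 12. In the tile upstream of HDAC4 the rest also held 6 measured CpGs, a tie, so which of its parts is printed was not fixed by the count. In the HS3ST6 and GSC tiles the pooled level of the HOXA5-targeted library was lower in the printed stretch than in the rest of the tile, where single CpGs were also low, such as those at bases 952 and 956 of the HS3ST6 tile with 1 of 5 reads methylated each. This was not so in every member: in the tile near TMEM271 the stretch with the most measured CpGs stood at 86.7% in Neg and 30.5% in the HOXA5-targeted library, and the rest of that tile at 80.5% and 19.5%. That tile was uneven as well, and its stretch spanned the change. In the HOXA5-targeted library its CpGs at bases 120 to 531 had no methylated read, except 1 of 3 at base 122. All its measured CpGs at bases 645 to 939 had methylated reads there, on few reads each.

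**Figure D1:**
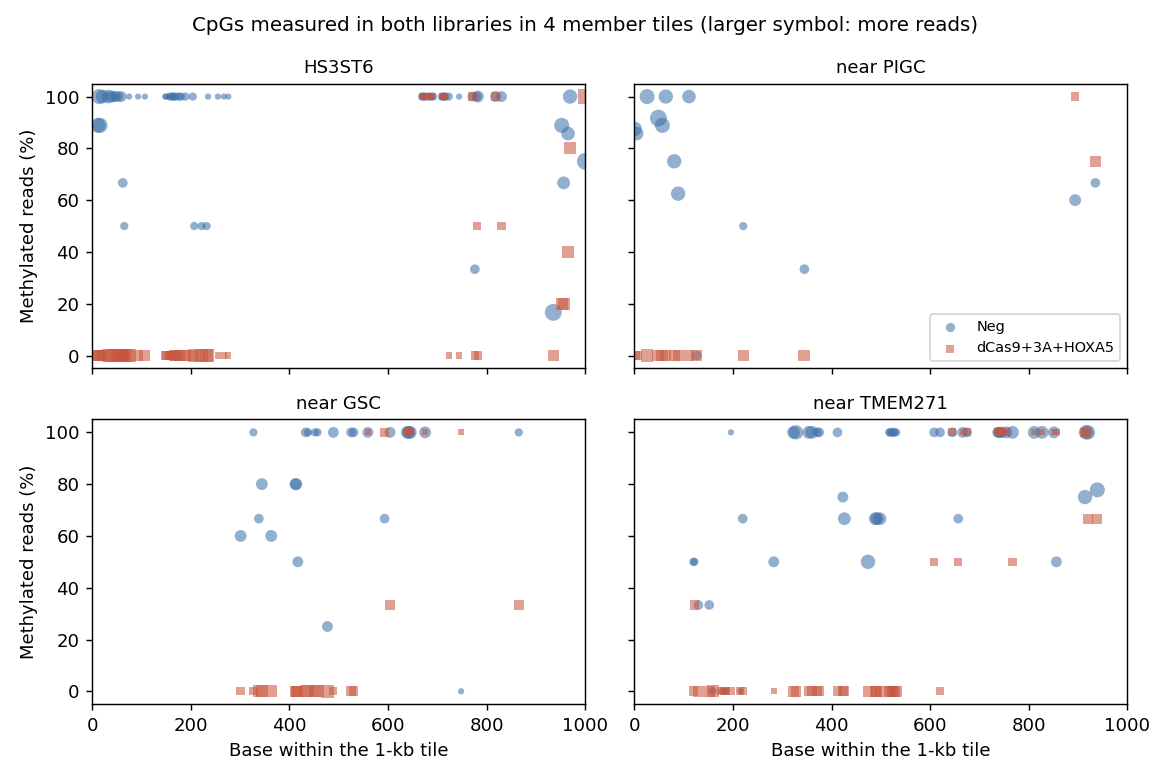
Methylation of each CpG measured in both libraries (vertical axis, percent of reads) against its base within the 1-kb tile (horizontal axis) in 4 member tiles, with Neg as circles and dCas9+3A+HOXA5 as squares and symbol area rising with reads. In the HS3ST6 tile the dCas9+3A+HOXA5 squares lie at 0 over the first 286 bases shown above, while squares between 0% and 100% appear in the rest of the tile.

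Over all 212 members the level in Neg ranged from 80% to 100% with a median of 84.2%, and the level in the HOXA5-targeted library from 0% to 30.0% with a median of 22.2%. The difference ranged from 50.3 to 94.7 points lower, with a median of 63.5 points lower. These ranges are bounded by the selection. The members held 1953 CpGs read in both libraries, of which 1430 (73.2%) were lower in the HOXA5-targeted library, 141 (7.22%) were higher and 382 (19.6%) were equal. Every measured CpG was lower in 26 tiles, and no CpG was higher in 109 tiles. The selection bears on these directions, since it used the same reads. In CCDC15 (chr11:124832001-124833000) no CpG was lower or higher, yet the pooled level was 21 of 24 in Neg and 6 of 31 in the HOXA5-targeted library. There the reads lay on different CpGs in the 2 libraries, so a pooled level can differ with no CpG changed. Of the 1953 CpGs, 1199 were fully methylated in Neg and 1187 had no methylated read in the HOXA5-targeted library. The median member had 3.65 reads per CpG in Neg and 2.85 in the HOXA5-targeted library, so a single CpG can stand at 100% or 0% on few reads. These counts also used the reads of the selection, and the same counts were not made for the other tiles.

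The 10 largest losses among members with at least 30 reads in each library were spread over 10 chromosomes. The largest stood 35.8 kb from PIGC, an enzyme of GPI-anchor synthesis (chr1:172449001-172450000), with 74 of 92 reads methylated in Neg (80.4%, Wilson 71.2 to 87.3) and 5 of 57 in the HOXA5-targeted library (8.77%, 3.81 to 18.9). HS3ST6, which adds 3-O-sulfate to heparan sulfate, had 168 of 195 reads methylated in Neg (86.2%, 80.6 to 90.3) and 32 of 203 in the HOXA5-targeted library (15.8%, 11.4 to 21.4) over 57 CpGs, of which 43 were lower and 1 was higher. Its tile (chr16:1968001-1969000) held the gene start and 416 bases of exon, of which 324 were coding and the others 5′ UTR. An intronic tile of STK32B, a serine/threonine kinase (chr4:5393001-5394000), had 27 of 30 and 7 of 34.

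A tile 6.52 kb from SCYGR5 (chr2:228524001-228525000) had 30 of 34 reads methylated in Neg and 8 of 42 in the HOXA5-targeted library. Its 8 measured CpGs at bases 764 to 892 had 20 of 20 in Neg and 0 of 32 in the HOXA5-targeted library, with 4 reads at each CpG there. The rest of the tile had 10 of 14 in Neg and 8 of 10 in the HOXA5-targeted library. These counts thus rest on few molecules, each counted at several CpGs. A tile 138 kb from GSC, the goosecoid homeobox gene (chr14:95374001-95375000), had 79 of 94 and 14 of 83. LY96, the partner of TLR4 in sensing lipopolysaccharide, held an intronic tile with 30 of 32 and 8 of 30. These tiles held 14, 25 and 6 measured CpGs, in that order.

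A tile 413 kb from TAFA5, which encodes a secreted protein (chr22:49298001-49299000), had 74 of 88 reads methylated in Neg and 13 of 75 in the HOXA5-targeted library. IGF2BP2, an RNA-binding protein, held a tile (chr3:185407001-185408000) with 38 of 42 and 16 of 63. Its CpGs at bases 443 to 522, outside its coding bases, had 0 of 6 reads methylated each in the HOXA5-targeted library. The next measured CpG, at base 527, had 6 of 6 methylated there. Neg had only 1 to 3 reads at each of these CpGs. A tile 696 kb from CCNG1, which encodes cyclin G1 (chr5:162168001-162169000), had 42 of 46 and 15 of 56. The tile of KANK1, an adaptor of cell adhesions (chr9:707001-708000), overlapped a UTR exon and had 53 of 62 and 10 of 47. The CpGs at bases 260 to 390 without a methylated read in the HOXA5-targeted library lay beyond that exon. Each of them had 2 reads there, and the CpG at base 410 had 2 of 2 methylated. The counts of this tile thus rest on few molecules, each counted at several CpGs. None of these 4 tiles had a protein-coding start within 1 kb.

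Beside HS3ST6, 5 members had a protein-coding start inside or within 1 kb, which made 6 of 212 (2.83%, Wilson 1.30 to 6.04), near the 2.26% of Neg-methylated tiles and below the 5.06% of all tested tiles. The tile 0.917 kb from TMEM271 (chr4:571001-572000) lay wholly within a predicted CpG island and had 171 of 206 reads methylated in Neg (83.0%, 77.3 to 87.5) and 33 of 136 in the HOXA5-targeted library (24.3%, 17.8 to 32.1), with 31 of 50 CpGs lower and 2 higher. KLK6, a kallikrein serine protease, held a tile over UTR exons (chr19:51472001-51473000) with 78 of 97 and 8 of 36. Its CpGs at bases 981 to 1000 had 8 to 14 reads each in Neg and 1 each in the HOXA5-targeted library, all methylated. By the mean of CpG levels, 1 of 186 members had a protein-coding start within 1 kb.

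The tile 0.235 kb from CACNG5, an auxiliary subunit of AMPA receptors (chr17:64830001-64831000), had 19 of 20 reads methylated in Neg and 5 of 24 in the HOXA5-targeted library. The tile 0.114 kb from KCNS3, a potassium channel subunit (chr2:18058001-18059000), had 17 of 21 and 4 of 16, and that of C4orf54 (chr4:100577001-100578000) had 20 of 25 and 5 of 17. These last 3 tiles held 6 or 7 measured CpGs each, and their Wilson intervals in the HOXA5-targeted library reached 40.5% to 53.1%. The members with the most measured CpGs were HS3ST6, the TMEM271 tile, PTPRN2, KANK1 and SHANK2. PTPRN2, a phosphatase-like protein of secretory granules, had 112 of 133 and 32 of 116 over 28 CpGs (chr7:157475001-157476000), and SHANK2, a scaffold of excitatory synapses, 84 of 102 and 20 of 71 over 26 CpGs (chr11:70589001-70590000).

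Most members were shallowly read. The median member had 28 reads in Neg and 21 in the HOXA5-targeted library over 8 CpGs, against 47 and 33 reads over 11 CpGs in the tiles at or above 80% in Neg. In the library with fewer reads, 101 of the 212 members had 15 to 19 reads, 78 had 20 to 29, 24 had 30 to 49 and 9 had 50 or more. Members made up 0.155% of the Neg-methylated tiles with 15 to 19 reads (Wilson 0.128 to 0.188) and 0.0109% of those with 50 or more (0.00574 to 0.0207). The swapped direction fell off with reads as well, from 1.04% to 0.127%. The part of sampling of few reads in the selection of members was not tested.

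**Figure D2:**
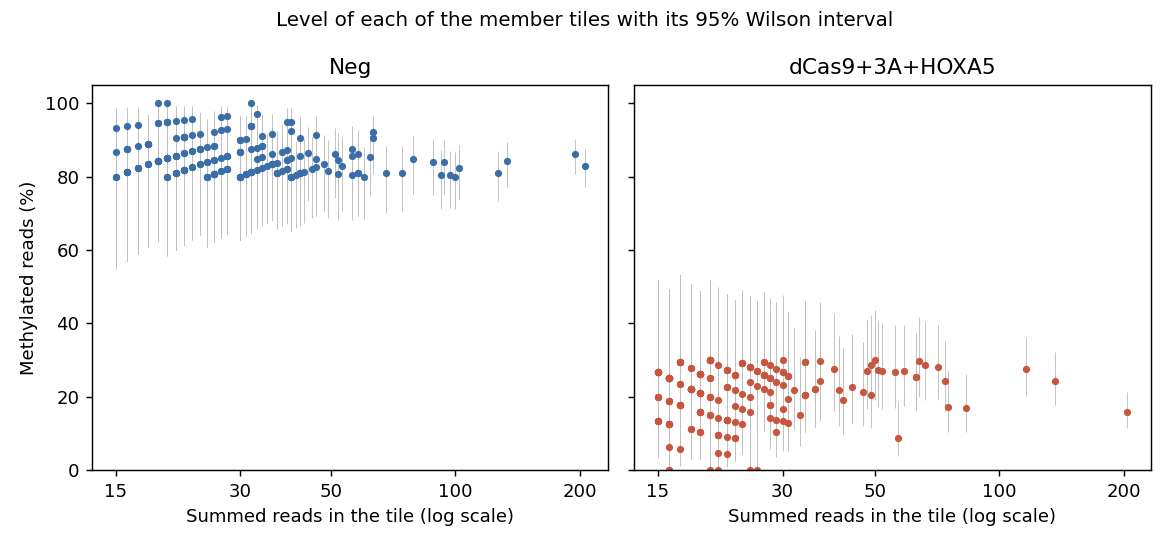
Methylation level (vertical axis, percent of reads) of each of the 212 member tiles against its summed reads (horizontal axis, log scale), in Neg at left and dCas9+3A+HOXA5 at right, with 95% Wilson intervals as grey bars. Most points lie below 50 reads, where the intervals are wide, and the points end at 80% and 30% because tiles were selected on these levels.

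CpGs of the member tiles that were read in 1 library only took no part in the selection. Neg had 1179 such CpGs in 199 members, with 2557 of 3607 reads methylated (70.9%, Wilson 69.4 to 72.4), against 84.8% at the CpGs used for selection. The HOXA5-targeted library had 173 such CpGs in 84 members, with 206 of 386 reads methylated (53.4%, 48.4 to 58.3), against 21.6% at the CpGs used. At these unused CpGs the levels of the 2 libraries thus lay closer together, 70.9% and 53.4%, and the HOXA5-targeted library remained the lower one. In all tiles at or above 80% in Neg the same kind of CpG stood at 82.9% in Neg and 85.6% in the HOXA5-targeted library. Of 78 members with both kinds of unused CpG, 39 were lower in the HOXA5-targeted library, 32 were higher and 7 were equal, with tile medians of 72.2% in Neg and 64.4%. The pooled value rested partly on MYOM2, HS3ST6 and the tile near TAFA5, the 3 members with the most unmethylated reads of this kind: without them the HOXA5-targeted library had 206 of 336 reads methylated (61.3%, 56.0 to 66.4) and Neg 71.1%. The HS3ST6 tile had 95 of 136 such reads methylated in Neg and 0 of 18 in the HOXA5-targeted library. A fragment can cover used and unused CpGs, so the reads are not independent of those that chose the tiles.

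No 2 members were adjacent. The 177 tested tiles next to a member averaged 65% in Neg and 58.1% in the HOXA5-targeted library, and 102 were lower while 73 were higher. Of these, 24.9% were lower by at least 20 points, against 2.67% of the tiles next to any Neg-methylated tile, which averaged 80.1% and 84.6%. From 2 to 10 kb away, 21.1% of 1376 tiles were lower by at least 20 points, against 2.79%, and 6 of the 1376 were members themselves. The large difference of the member tile is set by the selection, and its neighbours were less methylated in both libraries than the neighbours of other methylated tiles.

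**Figure D3:**
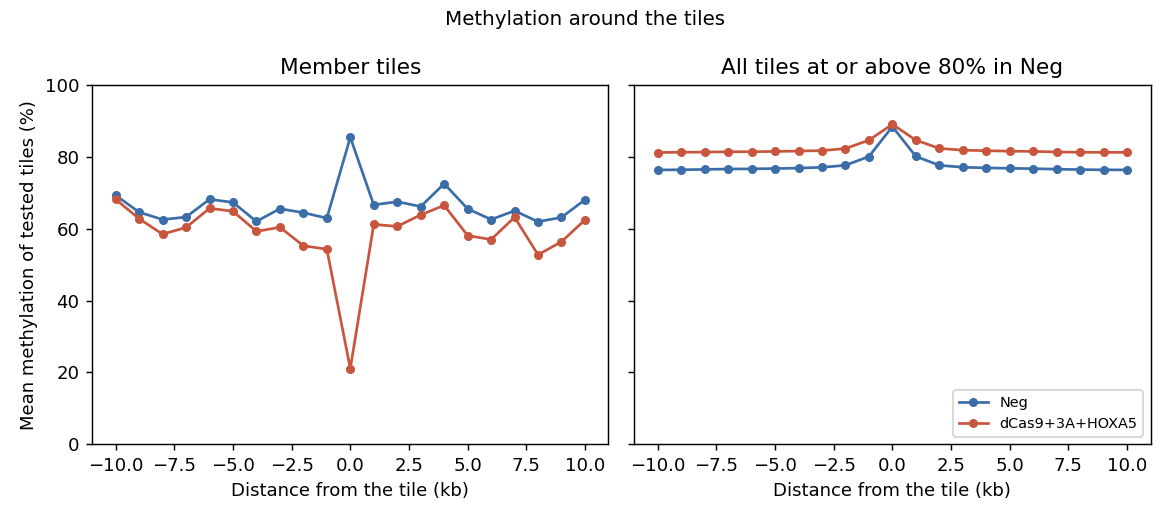
Mean methylation of tested tiles (vertical axis, percent) by distance from the tile in kb (horizontal axis), around the 212 members at left and around all tiles at or above 80% in Neg at right. Around members both libraries stay near 65% and 60% with a peak in Neg and a trough in dCas9+3A+HOXA5 at distance 0, which the selection sets; around the other tiles dCas9+3A+HOXA5 lies above Neg at every distance.

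Within 50 kb on either side, 178 members had at least 10 tested tiles, with the member itself left out and other members kept in. The mean of these tiles was under 70% in Neg around 107 members (60.1%), against 14.6% of all Neg-methylated tiles. It was lower in the HOXA5-targeted library by at least 10 points around 50 members (28.1%), against 0.271% of Neg-methylated tiles and 2.37% of all tested tiles. The median surrounding difference was 0.913 points higher in the HOXA5-targeted library, with quartiles of 11.4 points lower and 6.47 points higher, against a median of 5.16 points higher around Neg-methylated tiles (quartiles 3.44 and 7.14 points higher). The surroundings were lower around 83 of the 178 members (46.6%), against 3.17%. The 9 members of a stretch upstream of HDAC4 on chromosome 2 were all among the 50, with surrounding differences from -29.6 to -15.9 points, and without them the median surrounding difference was 2.59 points higher. At the unused CpGs, the 50 members with lower surroundings had 67.5% in Neg and 48.3% in the HOXA5-targeted library (42 of 87 reads, Wilson 38.1 to 58.6), and the 128 others had 72.9% and 56.6% (125 of 221 reads, 49.97 to 62.9). Of the 50, 86.0% lay over 100 kb from a protein-coding start, and of the 128, 32%.

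Genes with several members differed in their surroundings; they were singled out after their values were seen. GABRG3, a GABA-A receptor subunit, held 3 intronic members on chromosome 15. They had 33 of 39, 22 of 27 and 24 of 30 reads methylated in Neg and 4 of 17, 3 of 17 and 0 of 26 in the HOXA5-targeted library. The means within 50 kb of them were 48.5% to 53.1% in Neg and 19.3% to 20.4% in the HOXA5-targeted library. ASTN1, a protein of neuronal migration, held 2 intronic members whose surroundings averaged 39.2% and 40.2% in Neg and 17.4% and 14.7% in the HOXA5-targeted library. EGF, the epidermal growth factor gene, differed, with surroundings of 74.2% and 74.9% in Neg and 81.5% and 77.4% in the HOXA5-targeted library around its 2 members. The others with 2 members each, ASIC2, CDH4, PTPRN2 and RYR2, all had lower surroundings in the HOXA5-targeted library, with differences from -20.4 to -6.93 points, so that EGF was the exception among the 7 genes.

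Members lay far from genes more often than the tiles they were drawn from. In 110 of 212 (51.9%, Wilson 45.2 to 58.5) the nearest protein-coding start was over 100 kb away, against 19.2% of Neg-methylated tiles and 26.5% of all tested tiles, and the median distance was 108 kb against 31.2 kb and 37.4 kb. Protein-coding gene bodies overlapped 97 members (45.8%, 39.2 to 52.5), against 67.6% and 57.3%. Coding exons were hit by 14 members (6.60%), against 17.3% and 13.2%, and 76 members (35.8%) overlapped no gene of any type, against 22.4% and 29.6%. The 97 tiles in gene bodies fell in 92 genes.

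CpG content of the members was slightly below that of the other tiles. The median member had 14 CpGs in the reference sequence and 45.1% GC, against 16 CpGs and 47.2% in Neg-methylated tiles and 15 and 47.1% in all tested tiles. A predicted CpG island (windows of 500 bp, joined where they overlap, with 55% GC or more and a CpG count 0.65 times or more of that predicted from base content) overlapped 15 members (7.08%, Wilson 4.33 to 11.3), against 6.33% and 8.81%. Beside HS3ST6, KANK1, IGF2BP2 and the tiles near TMEM271, GSC, KCNS3 and CACNG5, these included exons of SCARA5, a scavenger receptor, with 90.5% in Neg and 30.0% in the HOXA5-targeted library. A CpG between A or T bases on both sides made up 16.6% of the CpGs of members and 16.6% of those of Neg-methylated tiles. Such CpGs with no other CpG within 35 bases, the context that loses methylation most readily with cell division, made up 5.07% in members, 4.54% in Neg-methylated tiles and 5.11% in all tested tiles.

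Copy number of sequence in the genome was looked at through words of 12 bases that occur at least 20000 times on the autosomes, both strands together. Such words covered at least 25% of the bases in 83 members (39.2%, Wilson 32.8 to 45.9), against 43.0% of Neg-methylated tiles and 37.3% of all tested tiles. Of the measured CpGs, 32% lay in such words in members, against 26.2% and 23%. The HS3ST6 and KANK1 tiles and the tile near TAFA5 held none.

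**Figure D4:**
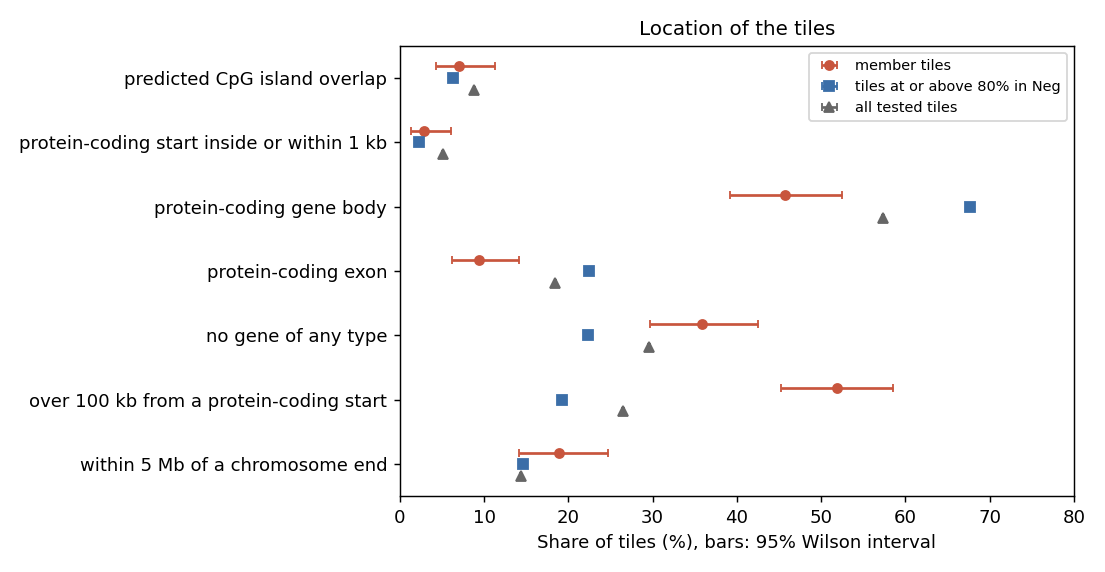
Share of tiles (horizontal axis, percent, with 95% Wilson intervals as bars) in each class of location for the 212 members, the 335579 tiles at or above 80% in Neg and all 742717 tested tiles. Members stand at 51.9% for a protein-coding start over 100 kb away and at 45.8% for gene bodies, apart from both other sets, and near them for CpG islands and gene starts.

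Gene families were counted by symbol, which leaves out other genes such as TSHZ2 and ZGPAT with 1 member each. Zinc finger genes with ZNF symbols had 1 member, at ZNF268, which is 0.472% of members against 1.17% of Neg-methylated tiles. Among the genes counted by symbol, those of the olfactory receptor, protocadherin, germline, imprinted and DNA methylation machinery families had 0 members. The 157 homeobox and other developmental factors counted also had 0 members, and TSHZ2 was not among them. In Neg-methylated tiles these 6 families made up 0.0188% to 0.422% each, so a set of 212 tiles would hold few of them.

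Chromosome 2 held 37 members, 17.5% of all members against 6.79% of Neg-methylated tiles. Of these, 9 lay in a stretch of tested tiles at chr2:240351001-240778000, upstream of HDAC4, a histone deacetylase gene on the minus strand that starts at 240323348. This stretch was singled out after its values were seen. It holds long noncoding RNA genes, among them LINC02991, and no protein-coding gene. The 9 members lay 64.7 kb to 292 kb from the HDAC4 start. Levels in the 9 members ran from 80.9% to 96.3% in Neg and from 4.55% to 29.4% in the HOXA5-targeted library. The lowest had 19 of 23 reads methylated in Neg and 1 of 22 in the HOXA5-targeted library (chr2:240486001-240487000), and the largest difference was at chr2:240504001-240505000, with 26 of 27 and 2 of 18.

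Lower levels were not limited to the 9 selected tiles. The edges of the stretch were set with these values known, which bears on its contrast with the tiles before and after it. The 231 other tested tiles of the stretch had medians of 72.7% in Neg and 52.9% in the HOXA5-targeted library, and 199 were lower while 32 were higher. The 326 tiles before it had medians of 86.2% and 87.4%, and 150 were lower while 174 were higher, and 28 were lower by at least 20 points. The 202 tiles after it had 76.7% and 74.4%, and 106 were lower while 93 were higher, and 31 were lower by at least 20 points, against 111 of the 231 tiles in the stretch. Reads per CpG in the stretch were 3.85 in Neg and 2.57 in the HOXA5-targeted library, and 3.91 and 2.41 before it. Without the 9 tiles, chromosome 2 held 28 of 203 members (13.8%), and 50.2% of members lay over 100 kb from a protein-coding start.

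**Figure D5:**
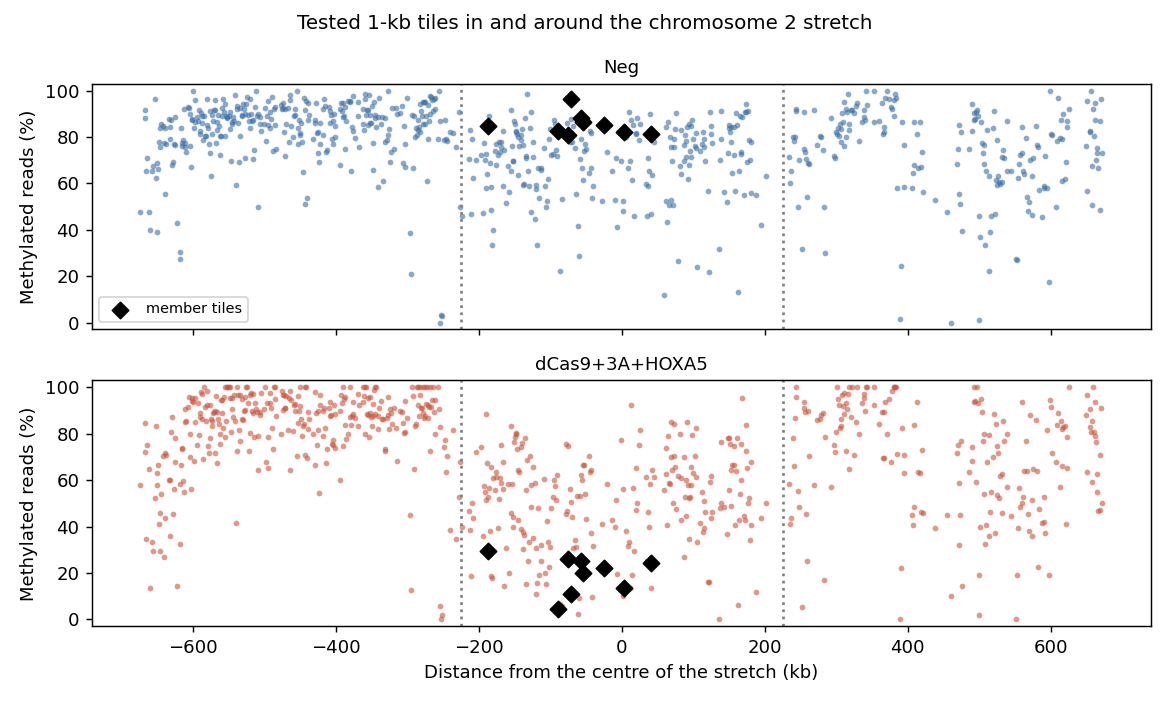
Methylation level (vertical axis, percent of reads) of tested tiles against distance from the centre of the chromosome 2 stretch in kb (horizontal axis), in Neg above and dCas9+3A+HOXA5 below, with member tiles as black diamonds and dotted lines at the edges used to cut the stretch. Between the lines most tiles are lower in dCas9+3A+HOXA5, with medians of 73.7% and 51.7% over all 240 tiles, while 28 of 326 tiles before it and 31 of 202 after it were lower by at least 20 points, some of them in a run at the left edge.

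The member nearest to the HOXA5 guide site lay 3.92 Mb away in an intron of ADCYAP1R1, the receptor of the neuropeptide PACAP (chr7:31098001-31099000), with 20 of 24 reads methylated in Neg and 7 of 27 in the HOXA5-targeted library. Chromosome 7 held 12 members, 5.66% of all members against 5.97% of Neg-methylated tiles. Counting sites with a following NGG on either strand, the best match of the 20-base guide in any member had 7 mismatches, in 6 tiles. No member held a site with 6 or fewer, against 0.832% of Neg-methylated tiles and 0.932% of all tested tiles. At such shares a set of 212 tiles would hold few of them.

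The files also count G reads on the strand opposite each cytosine, where a low share points to a C-to-T difference in sequence and not to conversion by bisulfite. This share was under 90% in the HOXA5-targeted library in 8 members (3.77%), against 0.712% of Neg-methylated tiles. In Neg it was so in none of the members, against 0.1925% of Neg-methylated tiles. At such a share a set of 212 tiles would hold few of them. The lowest share was 72.7%, near PPIAL4E. With single CpGs of a low share in either library left out of the whole table, by a limit set per CpG and not per tile, 188 of the 212 tiles were again members.

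Many members stood close to the limits. In 71 the level in Neg was under 82%, and in 31 the level in the HOXA5-targeted library was at least 28%. Just outside, 46 tiles had 78.1% to 79.6% in Neg with at most 30% in the HOXA5-targeted library, and 41 tiles had at least 80% in Neg with 30.1% to 32% in the HOXA5-targeted library. With the tile grid shifted by 500 bases 211 tiles met the same limits, and these overlapped 57 of the 212 members (26.9%).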

How the data were processed

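The study trimmed WGBS reads and aligned them to hg19 with BSMAP (version 2.90 per the submitters' processing notes); its methods give 5 reads as the least coverage of a CpG, while the deposited tables go down to 1 read. Per the file headers, each CpG carries the authors' read counts (methylated and total reads, and G reads on the opposite strand), an estimated count of total reads corrected for C-to-T differences, and a methylation fraction. The deposited values combine both strands. The treatment of duplicate reads is not stated there.

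Here the counts were summed over non-overlapping 1-kb tiles from position 1 of chromosomes 1 to 22, over CpGs read at least once in both libraries; a level is methylated over total reads. The authors' deposited fraction column was not used for levels, and the estimated count served as an alternative. With 1 library per group no test between groups was possible; Wilson 95% intervals cover counting error only. The tile code was tested on simulated data. The sequences of some named tiles are not reported here. Genes and UTRs came from GENCODE release 44 lifted to GRCh37, CpG islands were predicted from the sequence, and the guide sequence was read from the study's primer list. Predicted islands and distances use any base of overlap and the nearest annotated protein-coding start.

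The members and gene lists were chosen with earlier results of these data known. Tiles named singly were the 10 largest losses among members with at least 30 reads in each library, members with a protein-coding start within 1 kb, runs of adjacent members (there were none), the 5 with the most measured CpGs and the member nearest the guide; a tile is named by the protein-coding gene it overlaps or the nearest start. The chromosome 2 stretch, genes with several members, the tiles with a low opposite-strand share, the count of 12-base words and the leaving out of 3 members at the unused CpGs were added after seeing values. The alternatives were other read, CpG and level limits, tile sizes and positions, means over CpGs, the estimated count and removal of CpGs with evidence of a variant. Python 3.11.15 was used with numpy 2.4.6, pandas 2.3.3, scipy 1.17.1 and matplotlib 3.10.9.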

Additional observations from a re-analysis of the deposited data

Results flagged for a closer look

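In dCas9+3A+HOXA5, 8 member tiles (3.77%) had an opposite-strand G share under 90%, against 0.712% of Neg-methylated tiles. In the control library Neg there were 0, against 0.1925%, a share at which a set of 212 tiles would hold few. In the HOXA5-targeted library members had a median of 21 summed reads and Neg-methylated tiles 33, and the comparison was not matched for reads. The rule did not use this column directly. A C-to-T difference counts as an unmethylated read, so the rule favours it in the HOXA5-targeted library and disfavours it in Neg. The 8 tiles lay near EPHA8, PPIAL4E and PPP1R26 and in MOB4, SLC9A9, PXDNL, LY96 and CLDN10. Their shares ran from 72.7% near PPIAL4E to 89.3% near PPP1R26. Their part in the levels of these tiles was not tested.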

How the results depend on the processing

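The number of member tiles was 212 and became 23 with at least 5 reads at each CpG, 33 with at least 30 summed reads per library, 63 with at least 10 CpGs, 347 with 500-bp tiles, 15 with limits of 90% and 20%, and 1928 with limits of 70% and 40%. As a percentage of Neg-methylated tiles the 0.0632% was again 0.0632% with at least 5 reads at each CpG, where 65600 tiles were tested, and became 0.0187% with at least 30 reads, 0.0304% with at least 10 CpGs, 0.104% with 500-bp tiles, 0.0116% with 90% and 20%, and 0.407% with 70% and 40%. The share with a protein-coding start within 1 kb (2.83%) became 21.7% with at least 5 reads per CpG, 0.538% with the mean of CpG levels, 9.09% with at least 30 reads and 0% with 90% and 20%, where Neg-methylated tiles under the same settings had 4.99%, 2.25%, 3.10% and 2.19%. The share overlapping an island (7.08%) became 39.1%, 21.2%, 17.5% and 0% with at least 5 reads per CpG, 30 reads, 10 CpGs, and 90% and 20%, where Neg-methylated tiles had 20.04%, 10.6%, 9.75% and 7.60%. Each limit changes which tiles are tested or qualify; beyond that the cause was not tested. The number stayed within 1.5 times with the grid shifted (211), the mean of CpG levels (186), the corrected count (229), CpGs of variant evidence left out (211) and, chosen after seeing the data, without the chromosome 2 stretch (203). Which tiles were members changed more: 94 of 212 were members by the mean of CpG levels, and 5 overlapped a member at 5 reads per CpG. In every one of these settings more tiles met the limits with the libraries swapped than in the direction described.

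With 1 library per group no spread between cultures can be given. Treatment, library, depth and time in culture cannot be told apart. No paired analysis was possible because there was 1 library a group and the result comes from no test.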
